A study of Homo sapiens with 4 samples.

Results

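DNA repair and damage signalling was described through 41 genes in MDA-LM2 cells, against the MDA-MB-231 cells they derive from. A skipped exon was given to a gene when the middle exon of its event lay inside that gene on the same strand in the GENCODE 29 annotation of hg38. In all, 216 events with 181 different skipped exons lay in 38 of the 41 genes, out of 44447 events and 37641 exons listed in either line. XRCC4 and LIG4, which work in end joining, and MSH3, a mismatch repair protein, had no listed exon. An exon was compared where each line had at least 10 reads of inclusion plus exclusion and both kinds were seen at least once over the lines. That held for 87 exons in 31 of the genes, of 14109 exons in the whole data. A further 66 of the 181 exons had no exclusion read in either line, so no skipping of them was detectable at this depth.

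LM2 stands below for MDA-LM2, a derivative of MDA-MB-231 that spreads readily to the lung, and Parental stands for MDA-MB-231, a long-established line of human breast cancer cells. No cells were treated. The labels give 2 LM2 and 2 Parental samples, and do not say whether the replicates were separate cultures. The data hold 1 table for each line with no replicate in it, taken here as pooled over the line's samples, so no difference below has a replicate check and no p-value is given. Reads that fit the inclusion form, the exclusion form or both, summed over listed events, came to 17366605 in LM2 and 21716937 in Parental, and events can share reads.

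Cells answer DNA damage with kinases that sense it, among them ATM at broken ends and ATR at single-stranded DNA, and with checkpoint kinases that hold the cell cycle. Breaks are repaired by homologous recombination, in which BRCA1, BRCA2 and PALB2 act together on resected DNA, or by end joining. Crosslinks, bulky lesions, mispaired bases and damaged bases each have a pathway of their own. Several of these genes are known for exon skipping, and many of their exons shift the reading frame when they are left out. An exon whose length is divisible by 3 can be skipped in frame, whereas other lengths shift the frame and often bring in an early stop. Spliced RNAs with such a stop are a known target of nonsense-mediated decay.

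The sequences of 7 exons are given first, from GENCODE 29 transcripts on hg38 and in transcript direction, because the results turn on them. ATM, BARD1 and ATR show coding exons with large differences in deposited level. Their capitals mark bases of codons that the exon's ends split. ATM and ATR can lose the exon in frame, and BARD1 cannot. ATM exon 5 lies at chr11:108235670-108235834 on the plus strand, BARD1 exon 3 at chr2:214792297-214792445 on the minus strand and ATR exon 6 at chr3:142560263-142560454 on the minus strand.
ATM 165-nt exon: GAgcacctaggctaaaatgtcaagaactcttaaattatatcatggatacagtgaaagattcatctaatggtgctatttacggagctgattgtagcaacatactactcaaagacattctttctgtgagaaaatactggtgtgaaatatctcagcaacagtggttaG
BARD1 149-nt exon: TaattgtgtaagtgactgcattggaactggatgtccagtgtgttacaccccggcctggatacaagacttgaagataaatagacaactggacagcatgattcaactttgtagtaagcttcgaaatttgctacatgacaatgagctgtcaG
ATR 192-nt exon: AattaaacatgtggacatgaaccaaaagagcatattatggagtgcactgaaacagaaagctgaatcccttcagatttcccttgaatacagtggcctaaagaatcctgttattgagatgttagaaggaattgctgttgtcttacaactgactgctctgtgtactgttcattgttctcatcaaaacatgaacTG

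MRE11 and FANCI each had a pair of forms that differ by 3 bases at the 5′ end of the exon, shown in capitals. The long form of MRE11 lies at chr11:94445810-94445893 on the minus strand and that of FANCI at chr15:89306007-89306194 on the plus strand.
MRE11 84-nt exon: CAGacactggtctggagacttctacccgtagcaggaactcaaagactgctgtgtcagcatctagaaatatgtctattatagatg
FANCI 188-nt exon: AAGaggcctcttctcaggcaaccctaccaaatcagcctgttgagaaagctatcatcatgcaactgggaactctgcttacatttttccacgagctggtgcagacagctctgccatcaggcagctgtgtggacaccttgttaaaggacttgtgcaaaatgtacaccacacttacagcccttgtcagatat

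XPA and FANCA had exons absent from the main coding transcript that bring a stop codon into the frame. The 5′ part of each exon is shown as far as that stop, which is in capitals. Both are on the minus strand, XPA at chr9:97682200-97682430 and FANCA at chr16:89762638-89762793.
XPA 231-nt exon: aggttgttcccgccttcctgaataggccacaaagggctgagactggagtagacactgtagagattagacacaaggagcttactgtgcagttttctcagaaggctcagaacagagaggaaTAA
FANCA 156-nt exon: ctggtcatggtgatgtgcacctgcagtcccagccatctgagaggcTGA

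Of the 87 repair exons 3 were called different between the lines, all higher in LM2. In 23 (26.4%) the deposited levels differed by 0.1 or more, as they did in 16.6% of all compared exons. Levels counted from inclusion and exclusion reads differed by 0.1 or more in 14 (16.1%), against 15.9% of all compared exons. The median number of such reads was 59 in LM2 and 72 in Parental for the 87, and 74 and 92 for all. The called ones were exon 5 of ATM, exon 3 of BARD1, the partner of BRCA1, and an exon of ERCC6L2, a Snf2-family ATPase related to the nucleotide excision repair factor ERCC6. The inclusion level is the deposited estimate of the fraction of transcripts that hold the exon, with a deposited interval. A Bayes factor weighs the evidence for a difference against the evidence for none. An exon was called where the authors' deposited table gave a Bayes factor of 10 or more, together with levels that differed by 0.2 or more. By this rule 3 of the 87 repair exons were called higher in LM2, where 0.921% of all compared exons were. None of the 87 was called lower, where 0.326% of all exons were. The median difference over the 87 was 0, with quartiles of -0.04 and 0.03, and over all exons it was 0, with quartiles of -0.02 and 0.03.

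ERCC6L2 had the one called exon that also differed in its own inclusion and exclusion reads. Its 167-nt exon, at chr9:95967459-95967625, stood at a level of 0.47 (interval 0.36 to 0.59) in LM2 and 0.23 (0.18 to 0.30) in Parental, and the intervals did not overlap. In LM2 66 reads fit inclusion, 16 exclusion and 77 both, and in Parental 56 fit inclusion, 49 exclusion and 107 both. Exclusion reads were thus 19.5% (exact interval 11.6 to 29.7%) of inclusion plus exclusion reads in LM2 and 46.7% (36.9 to 56.7%) in Parental. These binomial intervals are at 95% and, like every interval from reads below, cover counting error only. Per 1000000 inclusion, exclusion and both-form reads of the line (RPM), the event had 9.16 in LM2 and 9.76 in Parental. The authors' deposited table gave a Bayes factor of 47.79. GENCODE places the exon in the 3′ untranslated region of a transcript marked for nonsense-mediated decay, and no complete coding transcript holds its flanking exons, so no frame was given to it.

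ATM and BARD1 were called on levels that their exclusion reads did not share. ATM's exon 5 of 63 stood at 0.95 (0.86 to 0.99) in LM2 and 0.72 (0.63 to 0.83) in Parental. The Bayes factor was 16.13, per the authors' deposited table. LM2 had 201 inclusion, 0 exclusion and 255 both-form reads, and Parental 312, 1 and 621. A count of 0 exclusion reads in LM2 allows a share of up to 1.82% by the exact interval. The level counted from reads, in which inclusion reads are divided by 2, was 1 in LM2 and 0.994 in Parental. What moved with the deposited level was the number of inclusion reads per 100 both-form reads, at 78.8 in LM2 and 50.2 in Parental. Skipping the exon would keep the frame and leave 3001 of 3056 codons.

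BARD1, which forms the ubiquitin ligase with BRCA1, showed the same kind of split. Its exon 3 of 11 stood at 0.84 (0.76 to 0.91) in LM2 and 0.58 (0.49 to 0.68) in Parental, and the authors' deposited table gave a Bayes factor of 3542.41. LM2 had 243 inclusion, 3 exclusion and 1660 both-form reads, and Parental 153, 2 and 1610. Exclusion reads were 1.22% (0.252 to 3.52%) of inclusion plus exclusion reads in LM2 and 1.29% (0.157 to 4.58%) in Parental, so the skipped form was rare in each. Inclusion reads per 100 both-form reads were 14.6 in LM2 and 9.50 in Parental. The same exon is listed in 2 other events with no exclusion read, at 0.93 in LM2 and 0.61 in Parental in one of them and at 0.99 in LM2 and 0.97 in Parental in the other. The last of these had 136 inclusion and 45 both-form reads in LM2 and 82 and 45 in Parental, so the difference in level depends on the event. Why inclusion and both-form reads moved apart was not tested. Skipping this exon shifts the frame and brings a stop after 76 codons, shifted ones included, where the coding transcript has 777.

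**Figure D1:**
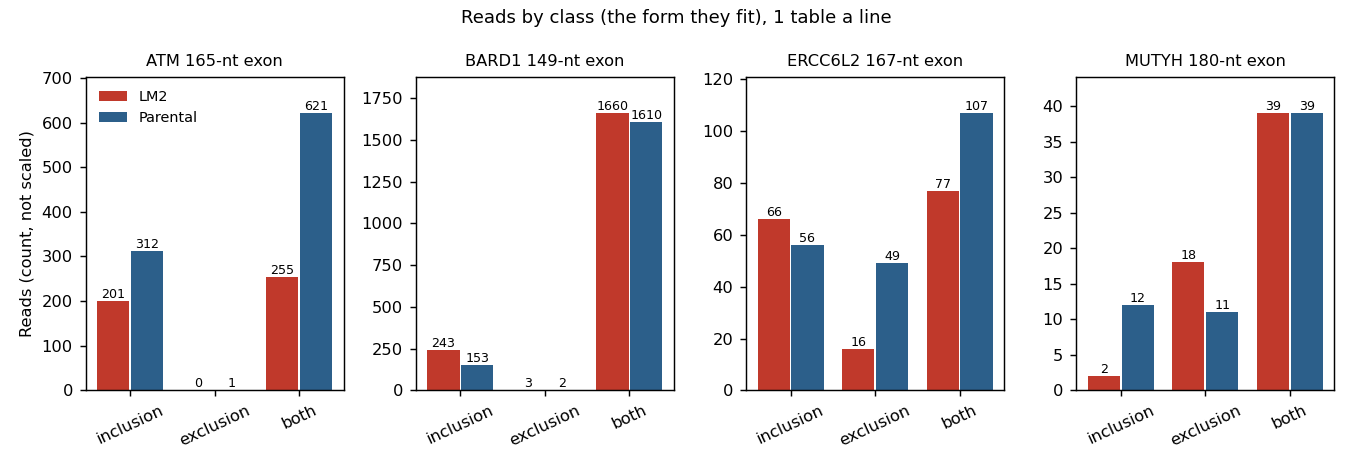
Reads by class for the 3 called exons and for the 180-nt exon of MUTYH, with reads (count, not scaled to depth) on the vertical axis, LM2 bars in red and Parental bars in blue. ERCC6L2 has 16 exclusion reads in LM2 and 49 in Parental, whereas ATM and BARD1 have at most 3 in either line.

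The damage kinases and checkpoint genes ATM, ATR, CHEK1 and CHEK2 had 22 listed exons and 14 compared ones. One was called, the ATM exon above, and 5 of the 14 levels were higher and 7 lower in LM2. ATM had 6 listed exons, of which 5 were compared. Its 88-nt exon before the start codon stood at 0.46 (0.35 to 0.57) in LM2 and 0.42 (0.35 to 0.50) in Parental, with 39 inclusion and 30 exclusion reads in LM2 and 80 and 73 in Parental. A pair of other exons before the ATM start codon, of 74 nt and 84 nt, was mostly skipped, at 0.08 and 0.04 in LM2 and 0.03 and 0.05 in Parental.

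ATR, the kinase of replication stress, had 2 listed exons and 1 compared. This exon, the sixth of its transcript, stood at 0.79 (0.62 to 0.94) in LM2 and 0.55 (0.46 to 0.66) in Parental, and the intervals overlapped. It had 117 inclusion, 1 exclusion and 216 both-form reads in LM2 and 126, 6 and 318 in Parental. The authors' deposited table gave a Bayes factor of 3.52, short of the rule. Skipping it keeps the frame, with 2580 of 2644 codons left.

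CHEK1, the checkpoint kinase downstream of ATR, had 3 compared exons of 5 listed. Its coding exons of 224 nt and 102 nt were nearly always included, at 0.98 and 0.99 in LM2 and 0.99 and 1 in Parental. CHEK2, the checkpoint kinase downstream of ATM, had 5 compared exons of 9 listed. Its start-codon exon of 325 nt stood at 0.72 (0.54 to 0.86) in LM2 and 0.83 (0.68 to 0.96) in Parental. A pair of in-frame extra exons, of 129 nt and 93 nt and with the same exclusion reads, was rarely used, at 0.05 and 0.06 in LM2 and 0.05 and 0.03 in Parental. Inclusion of the longer one would give 586 codons in place of 543. The annotation holds 4 pseudogenes named for CHEK2, so its reads may be shared with them.

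Homologous recombination was covered by BRCA1, BRCA2, BARD1, PALB2, RAD51C, RAD51D and RAD52, with 37 listed and 17 compared exons. Of the 17 levels, 8 were higher and 7 lower in LM2, and the BARD1 exon was the one call. BRCA1, which acts early in recombination, had 4 compared exons of 11 listed. Its rare exon of 66 nt, which would keep the frame, stood at 0.01 in LM2 and 0.02 in Parental, with 0 inclusion and 32 exclusion reads in LM2 and 2 and 50 in Parental. That exon overlaps an exon of RPL21P4 on the other strand. The exon of 54 nt, number 3 of 24, was included at 0.95 in LM2 and 0.98 in Parental. The length of that exon is divisible by 3, yet its loss joins bases into a stop after 26 codons.

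BRCA2, which acts in the strand-exchange step, had both of its listed exons compared. They are extra exons of 64 nt and 126 nt that bring in a stop, and they stood at 0.09 and 0.05 in LM2 and at 0.09 and 0.05 in Parental. PALB2, which links BRCA1 to BRCA2, also had both of its exons compared. Its exon 12 of 13, of 149 nt, stood at 0.90 (0.76 to 0.99) in LM2 and 0.67 (0.46 to 0.87) in Parental, with 38 inclusion and 0 exclusion reads in LM2 and 25 and 2 in Parental. Its 134-nt exon, annotated in a non-coding transcript, stood at 0.83 (0.70 to 0.94) in LM2 and 0.62 (0.45 to 0.77) in Parental, with 42 and 4 reads in LM2 and 28 and 7 in Parental. Both PALB2 levels were higher in LM2, their intervals overlapped, and the authors' deposited table gave Bayes factors of 1.30 and 1.77.

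RAD51C, a recombination factor, had 6 compared exons of 7 listed, and the levels of all 6 differed by at most 0.03 between the lines. Its in-frame extra exon of 120 nt stood at 0.02 in LM2 and 0.04 in Parental. RAD51D, another recombination factor, had 1 compared exon of 7 listed, at 0.76 (0.45 to 0.96) in LM2 and 0.73 (0.45 to 0.93) in Parental, and its exons overlap the read-through gene RAD51L3-RFFL. RAD52, which anneals single strands, had 1 of 4, a 151-nt exon that shifts the frame. It stood at 0.15 (0.07 to 0.27) in LM2 and 0.25 (0.13 to 0.40) in Parental, with 7 inclusion and 14 exclusion reads in LM2 and 11 and 11 in Parental.

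The MRN complex of MRE11, RAD50 and NBN senses and trims broken ends. Its genes had 10 listed and 6 compared exons, of which none was called, 1 level was higher and 4 were lower in LM2. MRE11, the nuclease, had all 3 of its exons compared. The 84-nt form of exon 16 stood at 0.33 (0.27 to 0.40) in LM2 and 0.42 (0.36 to 0.48) in Parental. The 81-nt form, which lacks the 3 capital bases, stood at 0.27 (0.21 to 0.34) in LM2 and 0.34 (0.28 to 0.40) in Parental. Each skip keeps the frame, with 680 codons left of 708 and 707. The pair shared its exclusion reads, 4 in LM2 and 10 in Parental, against 81 and 190 inclusion reads for the longer form.

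By reads alone MRE11 exon 16 was therefore mostly included, with a read-based level of 0.910 in LM2 and 0.905 in Parental for the 84-nt form. The deposited levels were far below these, in an event where 579 reads in LM2 and 1044 in Parental fit both forms. NBN, the subunit that recruits ATM, had both of its listed exons compared. Its 156-nt exon 13 of 16 stood at 0.51 (0.41 to 0.61) in LM2 and 0.70 (0.61 to 0.78) in Parental, and the authors' deposited table gave a Bayes factor of 5.09 and a difference of -0.19. Exclusion reads, 2 in LM2 and 10 in Parental, were 1.37% (0.166 to 4.86%) of inclusion plus exclusion reads in LM2 and 2.77% (1.34 to 5.04%) in Parental, with overlapping intervals. Inclusion reads per 100 both-form reads were 74.2 in LM2 and 121 in Parental, lower in LM2 as the deposited level was. The level counted from reads went the other way, at 0.973 in LM2 and 0.946 in Parental. RAD50, the ATPase, had 1 compared exon of 5 listed. It is a rare 77-nt exon at 0.02 in both lines, and 41 reads in LM2 and 95 in Parental fit exclusion. RAD50 overlaps AC116366.3 on the same strand.

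**Figure D2:**
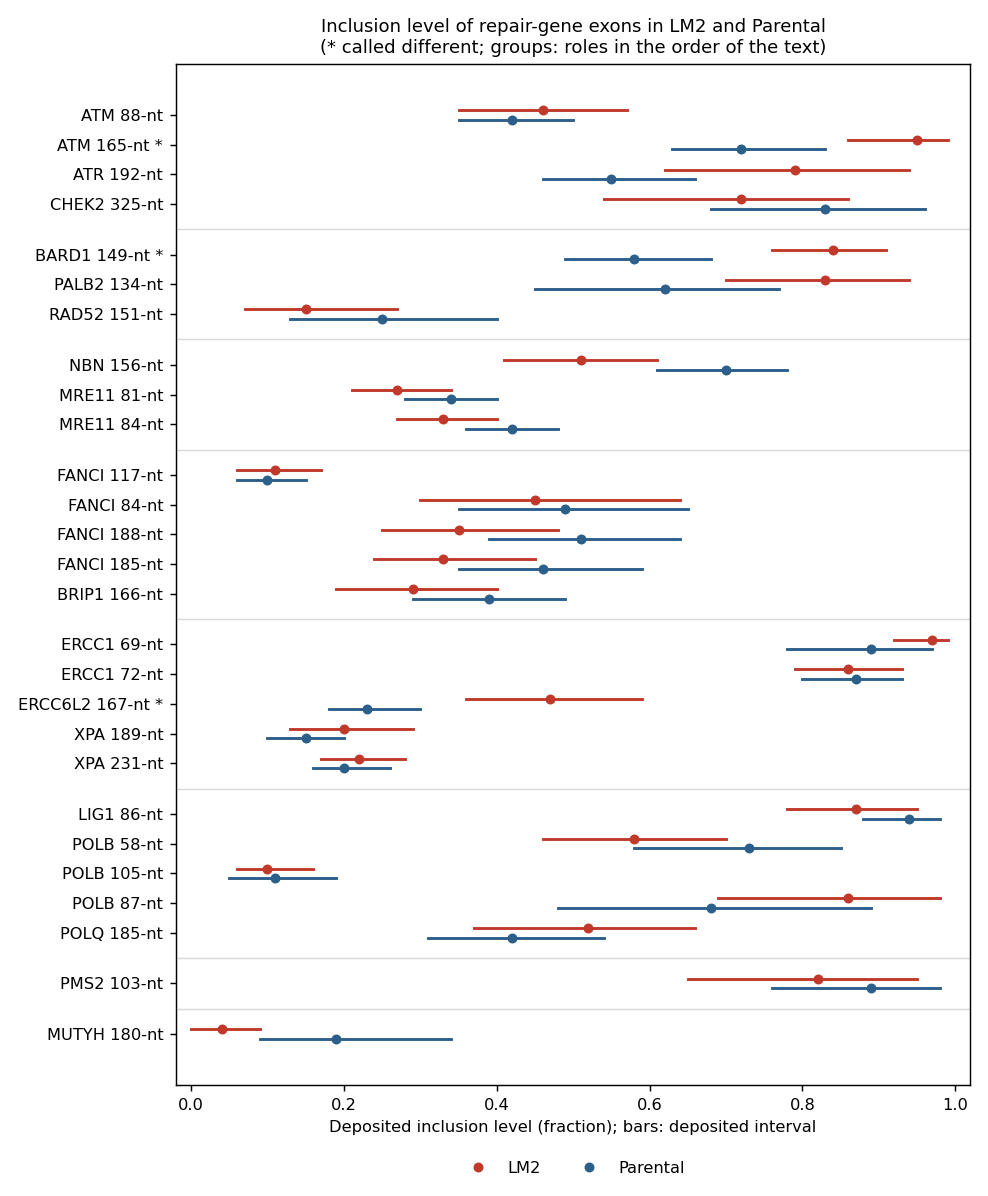
Deposited inclusion level (fraction, horizontal axis) with its deposited interval for the 27 exons named by rule, LM2 in red above Parental in blue, grouped by role. The intervals of the 3 starred exons do not overlap, and FANCI and MRE11 pairs lie lower in LM2 with overlapping intervals.

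The Fanconi anaemia genes, which repair crosslinks, had 24 listed and 18 compared exons, none called. FANCI, the partner of FANCD2, had all 5 of its exons compared. Its 188-nt exon 31 stood at 0.35 (0.25 to 0.48) in LM2 and 0.51 (0.39 to 0.64) in Parental, and the 185-nt form at 0.33 (0.24 to 0.45) in LM2 and 0.46 (0.35 to 0.59) in Parental. Each pair of intervals overlapped, and the same 15 exclusion reads in LM2 and 13 in Parental served both forms. Skipping the 188-nt form shifts the frame and brings a stop after 1095 codons, shifted ones included. The coding transcript used has 1268 codons and lacks the 180-nt exon of FANCI. The 180-nt in-frame exon of FANCI was included at 0.98 in LM2 and 0.97 in Parental.

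FANCA, a core complex subunit, had 7 compared exons of 10 listed. Its 156-nt exon with a stop, printed above, stood at 0.09 (0.05 to 0.13) in LM2 and 0.03 (0.01 to 0.05) in Parental, intervals that meet at 0.05. It had 18 inclusion and 52 exclusion reads in LM2 and 6 and 66 in Parental. The 122-nt exon of FANCA, also with a stop, stood at 0.23 (0.14 to 0.33) in LM2 and 0.24 (0.11 to 0.40) in Parental. FANCD2, which the pathway ubiquitinates, had 2 of 4, FANCL, the ubiquitin ligase, 2 of 3, and BRIP1, a helicase that binds BRCA1, 2 of 2. The in-frame 45-nt exon of FANCL stood at 0.02 in both lines, where 45 reads in LM2 and 36 in Parental fit exclusion. BRIP1 had a 166-nt exon before the start codon at 0.29 (0.19 to 0.40) in LM2 and 0.39 (0.29 to 0.49) in Parental.

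Nucleotide excision repair was covered by ERCC1, XPA and XPC, with ERCC6L2, a relative of ERCC6, grouped beside them. This group had 16 listed and 10 compared exons. ERCC1, which cuts beside the lesion with its partner nuclease, had 4 compared exons of 5 listed. Its 72-nt exon 8 of 10, which can be lost in frame with 273 of 297 codons left, stood at 0.86 (0.79 to 0.93) in LM2 and 0.87 (0.80 to 0.93) in Parental. It had 125 inclusion and 10 exclusion reads in LM2 and 160 and 10 in Parental. Exclusion made up 7.41% (3.61 to 13.2%) in LM2 and 5.88% (2.86 to 10.6%) in Parental, with intervals that overlapped. ERCC6L2 had all 4 of its exons compared. The other 3 were mostly skipped, between 0.03 and 0.09 in LM2 and between 0.01 and 0.05 in Parental.

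XPA, the scaffold that checks the lesion, had 2 compared exons of 4 listed. The 231-nt exon printed above stood at 0.22 (0.17 to 0.28) in LM2 and 0.20 (0.16 to 0.26) in Parental, with 57 inclusion and 47 exclusion reads in LM2 and 67 and 63 in Parental. Its stop comes after 264 codons, counting those read from the exon itself. The 264 are thus not all codons of the coding transcript, which has 273. The 189-nt exon, not annotated with these ends, stood at 0.20 (0.13 to 0.29) in LM2 and 0.15 (0.10 to 0.20) in Parental. Its reads set the lines further apart, with 25 inclusion and 2 exclusion reads in LM2 and 25 and 13 in Parental. XPC, which recognises the lesion, had 3 listed exons and no exclusion read in either line.

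Ligation, end joining and gap filling had 24 listed and 12 compared exons, none called. LIG1, the replicative ligase, had 3 compared of 5 listed, and its 86-nt exon 17 of 28 stood at 0.87 (0.78 to 0.95) in LM2 and 0.94 (0.88 to 0.98) in Parental. POLB, the gap-filling polymerase of base excision, had 4 of 6. Loss of its 58-nt exon 2 brings a stop after 26 codons, shifted ones included, where the coding transcript has 335. That exon stood at 0.58 (0.46 to 0.70) in LM2 and 0.73 (0.58 to 0.85) in Parental. It had 49 inclusion and 18 exclusion reads in LM2 and 45 and 8 in Parental. The 87-nt exon 11, which can be lost in frame, stood at 0.86 (0.69 to 0.98) in LM2 and 0.68 (0.48 to 0.89) in Parental. The in-frame extra exon of 105 nt in POLB stood at 0.10 (0.06 to 0.16) in LM2 and 0.11 (0.05 to 0.19) in Parental.

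POLQ, the polymerase of microhomology-mediated end joining, had its single listed exon compared. The exon, of 185 nt and 25th of 30, stood at 0.52 (0.37 to 0.66) in LM2 and 0.42 (0.31 to 0.54) in Parental, with 41 inclusion and 10 exclusion reads in LM2 and 53 and 16 in Parental. Its loss shifts the frame and brings a stop after 2333 codons, shifted ones included, where the coding transcript has 2590. POLL, a gap-filling polymerase of end joining, had 4 compared exons of 8 listed, each with at most 3 exclusion reads in a line. XRCC1, the scaffold of single-strand break repair, and LIG3, its ligase partner, had 2 listed exons each with no exclusion read. PARP1 and PARP2, which mark breaks with ADP-ribose chains, had 1 listed exon each. The PARP1 exon had 0 inclusion reads and 232 exclusion reads in LM2 and 0 and 237 in Parental. The PARP2 exon had 68 inclusion and no exclusion reads in LM2 and 126 and none in Parental, yet its deposited levels were 0.61 (0.46 to 0.76) in LM2 and 0.72 (0.59 to 0.85) in Parental.

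Mismatch and base excision repair had few exons that could be compared. MSH6, which reads mispaired bases, had 1 of 2, at 0.98 in LM2 and 0.97 in Parental. PMS2, the mismatch endonuclease, had 3 of 6, and its 103-nt exon 4 stood at 0.82 (0.65 to 0.95) in LM2 and 0.89 (0.76 to 0.98) in Parental. The annotation names 11 pseudogenes for PMS2, so its reads may be shared. UNG, the uracil glycosylase, had its single exon compared, at 0.98 in LM2 and 0.97 in Parental. APEX1, the abasic-site endonuclease, had 2 of 4, with the 126-nt start-codon exon at 0.98 in LM2 and 1 in Parental. OGG1 and NEIL1, glycosylases for oxidised bases, had 7 and 9 listed exons and none that could be compared.

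MUTYH, the glycosylase that removes adenine opposite an oxidised guanine, had 17 listed and 3 compared exons. Its 180-nt exon, at chr1:45329889-45330068, stood at 0.04 (0.00 to 0.09) in LM2 and 0.19 (0.09 to 0.34) in Parental. In LM2 2 reads fit inclusion and 18 exclusion, and in Parental 12 fit inclusion and 11 exclusion. Exclusion reads were 90.0% (68.3 to 98.8%) in LM2 and 47.8% (26.8 to 69.4%) in Parental, and these intervals overlapped slightly. The authors' deposited table gave a Bayes factor of 4.89 and a difference of -0.15, short of the rule on both. The exon carries a stop in the frame of the coding transcript. It comes after 503 codons, counting those read from the exon itself, where that transcript has 546.

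**Figure D3:**
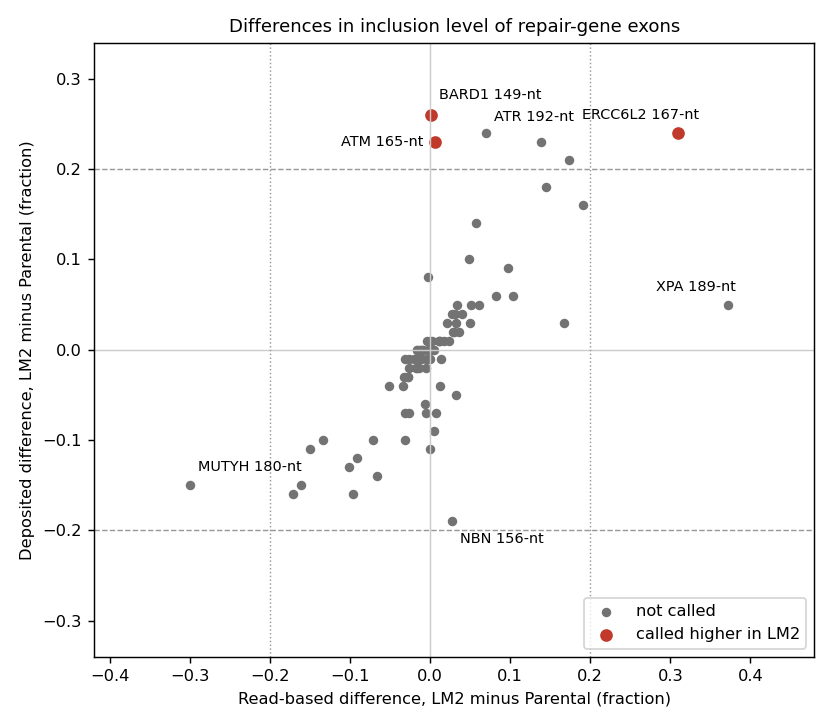
Deposited difference in inclusion level (vertical axis) against the difference counted from reads (horizontal axis), both LM2 minus Parental as fractions, for the 87 exons. Dashed lines mark deposited differences of -0.2 and 0.2 and dotted lines read-based ones of the same size. ATM and BARD1 lie near 0 on the read scale, and ERCC6L2 lies to the right at 0.31.

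Of the 87 compared exons, 37 (42.5%) had a length divisible by 3, where the share was 41.8% among all compared exons. Reading the annotated coding transcripts, 21 of the 87 keep the frame when skipped or included. In 13 of these, in ATM, ATR, CHEK1, CHEK2, NBN, MRE11, FANCA, ERCC1, LIG1 and POLB, the exon is part of the coding transcript and its skip keeps the frame. Their median level was 0.86 in LM2 and 0.84 in Parental, and their exclusion reads summed to 35 in LM2 and 56 in Parental. In the other 8 the exon is absent from the coding transcript used and its inclusion keeps the frame, with a median level of 0.055 in LM2 and 0.045 in Parental. These 8 include FANCI's 180-nt exon, at 0.98 in LM2 and 0.97 in Parental, and ERCC1's 69-nt exon, at 0.97 and 0.89. The transcript used was thus not always the main form in these cells.

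A further 21 exons are part of the coding transcript and give an early stop when skipped, in genes such as BARD1, FANCI, POLQ and CHEK1. Their median level was 0.94 in both lines, and 12 of them were above 0.9 in both, as 22.2% of all compared exons were. Of the 21, 13 had fewer than 5 exclusion reads over both lines. Another 18 exons in 15 genes bring a stop inside the exon when included, among them those of XPA, FANCA, BRCA2 and MUTYH. Their median level was 0.08 in LM2 and 0.07 in Parental, and 11 of the 18 were below 0.1 in both lines, as 27.9% of all compared exons were. Among the 18, FANCL's 101-nt exon, at 0.93 in LM2 and 0.79 in Parental, and PALB2's 134-nt exon, at 0.83 and 0.62, were mostly included. The FANCL exon is annotated as coding in another protein-coding transcript. Its stop was read in a FANCL transcript of 258 codons, whereas FANCL's 45-nt exon was read in one of 375. The classes were set by whether the coding transcript used holds the exon, so their levels are not read as an effect of the stop. None of the 18 was called, with 9 levels higher, 5 lower and 4 equal in LM2.

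**Figure D4:**
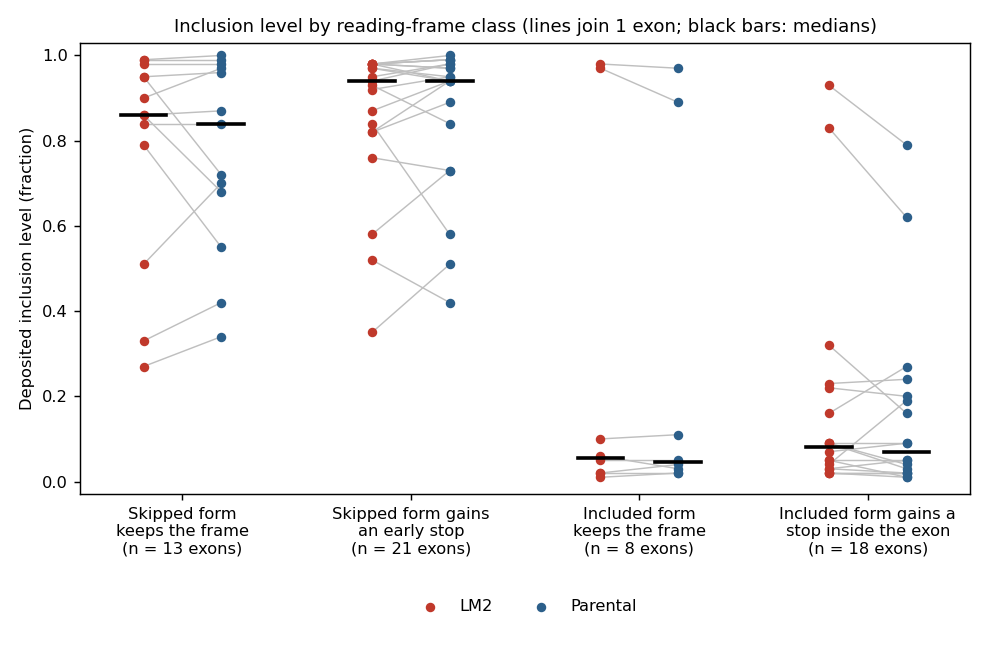
Deposited inclusion level (fraction, vertical axis) of 60 exons in 4 reading-frame classes, LM2 in red on the left and Parental in blue on the right of each class, with a line for each exon and black bars for medians. Exons whose inclusion brings a stop have medians of 0.08 in LM2 and 0.07 in Parental, and exons whose skip brings one have a median of 0.94 in each.

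Event reads give a rough view of how much RNA of each gene was read, and less RNA per cell cannot be told apart from fewer cells that make it. They are inclusion, exclusion and both-form reads of a gene's best covered event, scaled as RPM. RPM values are not ranked between genes, since events differ in length. Reads were sufficient, at least 20 in 1 of the lines, for 37 of the 41 genes. None was at least 2-fold higher in LM2 with an exact interval that excludes 1, where 3.32% of 8499 genes were, and 1 was 2-fold lower, where 8.86% were. The median log2 ratio of LM2 over Parental was -0.15 over the 37 genes and -0.12 over all genes. The interval lay above 1 in 7 of the 37 genes (18.9%) and in 23.9% of all genes, below 1 in 18 (48.6%) and in 37.8% of all genes, and held 1 in 12.

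NEIL1 was the gene past 2-fold, with 4 reads in LM2 and 25 in Parental, a ratio of 0.20 (0.0506 to 0.579). It rests on very few reads, and the sum over all NEIL1 events gave 0.659. OGG1 was next, with 153 reads in LM2 and 358 in Parental, or 8.81 RPM in LM2 and 16.5 RPM in Parental, a ratio of 0.534 (0.439 to 0.648). APEX1, in the same pathway, had 1867 and 3182 reads, a ratio of 0.734 (0.693 to 0.777), and UNG stood at 0.797 (0.647 to 0.980). MUTYH stood at 1.11 (0.809 to 1.52), so 4 of the 5 base excision genes, NEIL1 with its few reads included, had an interval below 1, as 37.8% of all genes did.

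All 3 MRN genes had an interval below 1, as 37.8% of all genes did. RAD50 had 33.97 RPM in LM2 and 55.21 in Parental, a ratio of 0.615 (0.557 to 0.680). NBN had 19.6 in LM2 and 30.0 in Parental, a ratio of 0.652 (0.570 to 0.745). MRE11 had 38.2 in LM2 and 57.3 in Parental, a ratio of 0.667 (0.607 to 0.734). Each stayed between 0.609 and 0.665 when all events of the gene were summed, although events of 1 gene share reads.

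ATM, the kinase that MRN activates, lay in the same range with 29.5 RPM in LM2 and 49.2 in Parental, a ratio of 0.60 (0.539 to 0.667). CHEK1 stood at 0.710 (0.667 to 0.755), with 1618 reads in LM2 and 2851 in Parental, and the ratios of ATR, 0.928 (0.803 to 1.07), and CHEK2, 0.943 (0.75 to 1.18), had intervals that hold 1. BRCA1 stood at 0.596 (0.562 to 0.633), with 1641 reads in LM2 and 3441 in Parental. Its partner BARD1 stood on the other side, at 1.33 (1.25 to 1.41), with 2350 reads in LM2 and 2209 in Parental. PALB2 at 1.28 (0.994 to 1.65), BRCA2 at 1.11 (0.876 to 1.40), RAD52 at 1.25 (0.760 to 2.06) and RAD51C at 1.07 (0.955 to 1.21) had intervals that hold 1. For RAD51D the event taken had 17 reads in LM2 and 14 in Parental, too few for a ratio.

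The Fanconi genes split in the same way. FANCD2 stood at 0.601 (0.50 to 0.718), with 182 reads in LM2 and 379 in Parental, and FANCA at 1.35 (1.18 to 1.54), with 454 in LM2 and 421 in Parental. FANCI stood at 0.903 (0.820 to 0.994). With all events of a gene summed, and without an interval, FANCD2 stood at 0.733, FANCA at 1.49 and FANCI at 0.979. FANCL and BRIP1 had intervals that hold 1. In the nucleotide excision group XPC stood at 0.609 (0.504 to 0.734), ERCC6L2 at 0.790 (0.735 to 0.849), XPA at 0.976 (0.881 to 1.08) and ERCC1 at 1.14 (1.09 to 1.19).

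Among ligases and polymerases POLB had the highest ratio of all 37 genes, 1.57 (1.23 to 2.00), with 158 reads in LM2 and 126 in Parental. LIG3 stood at 0.684 (0.603 to 0.774) and POLL at 0.605 (0.437 to 0.830), whereas LIG1 stood at 1.12 (1.00 to 1.25). PARP1 stood at 1.19 (1.10 to 1.29) and PARP2 at 0.776 (0.675 to 0.891). MSH6, with 11457 reads in LM2 and 13184 in Parental, stood at 1.09 (1.06 to 1.11). PMS2 stood at 0.820 (0.719 to 0.935), but at 1.024 with all of its events summed, so its direction depends on the event. Pseudogenes named for PARP1 (2), UNG (2), MRE11 (1) and FANCD2 (1) may also share reads with them.

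**Figure D5:**
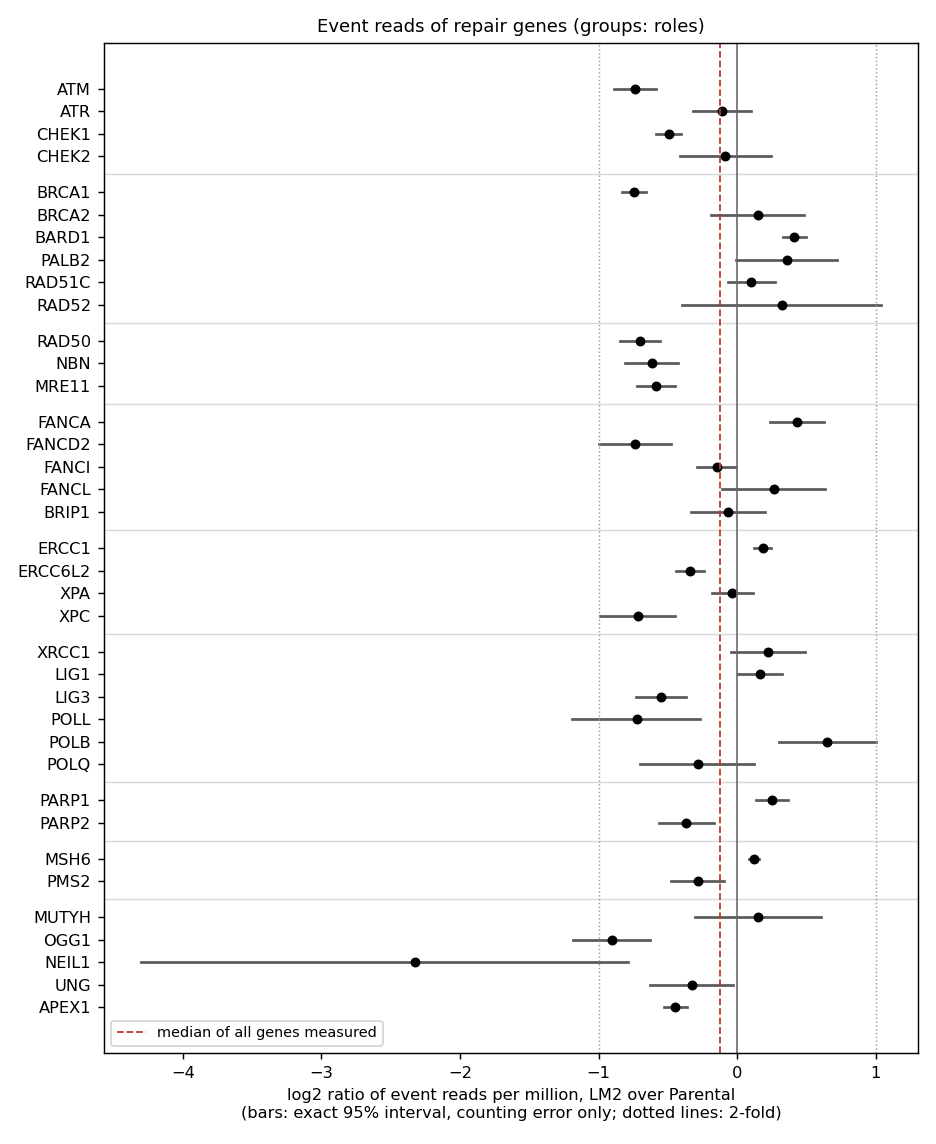
Log2 ratio of event reads (RPM), LM2 over Parental (horizontal axis), for 37 repair genes grouped by role, with exact 95% intervals that cover counting error only. The MRN genes, ATM, BRCA1, FANCD2, XPC and OGG1 lie left of 0, BARD1, FANCA and POLB lie right of it, and the dashed line marks the median of all genes at -0.12.

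A list of 109 other repair genes stood beside the 41. Of these, 197 exons were compared, and 0 were called higher and 0 lower in LM2, next to 3 and 0 of the 87. Their median difference was 0, with quartiles of -0.03 and 0.03. By event reads, 1 of 89 such genes was at least 2-fold higher in LM2 and 3 were at least 2-fold lower, and their median log2 ratio was -0.01. Among these 89 genes 32.6% had an interval below 1 and 24.7% one above 1.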

How the data were processed

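RNA of 4 samples, 2 of LM2 and 2 of Parental, was extracted and made into libraries with ScriptSeq v2, per the labels' protocols. STAR 2.7 and build hg38 are named in the submitters' processing notes. Per the file headers, MISO produced the deposited tables, 1 for each line and 1 that compares them. The inclusion level is a fraction from 0 to 1 in the deposited tables, a posterior mean with bounds whose confidence no source used here states. Read counts per event in 4 classes are deposited beside it. The authors' deposited comparison gives a difference as a score, LM2 minus Parental, and a Bayes factor as a ratio. No source used here states the event annotation, the MISO version or how replicates were joined.

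Exons were matched to genes with the GENCODE 29 annotation, with 1 event per exon, the one with most inclusion plus exclusion reads. A level from reads is inclusion reads divided by 2, over that plus exclusion reads. Frames were read by taking the exon out of, or putting it into, the coding transcript with the same flanking exons. A stop counted as early when over 50 nt before the last junction. Codons were counted from the start codon to the first stop, shifted or added ones included. Exact 95% intervals for shares and for ratios of event reads came from SciPy 1.17.1 under Python 3.11.15, and the ratio interval was tested on simulated data. Exons were named if called, if each line had at least 20 inclusion plus exclusion reads, at least 3 reads showed the skip and a level lay between 0.1 and 0.9, or if the difference was the largest of its role. The members, the lists and these rules were chosen with earlier results of these data known. With 1 table a line, no test over samples was made. Sequences come from GENCODE transcripts.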

Additional observations from a re-analysis of the deposited data

How the results depend on the processing

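The 3 higher exons were the same at a Bayes factor of at least 5, a difference of at least 0.1, at least 20 reads in each line and with every event counted. Of all compared exons, 1.18% were called higher at a Bayes factor of at least 5 and 1.45% at a difference of at least 0.1. Apart from the level from reads below, no such share is given for the other settings. At a Bayes factor of at least 20 there were 2 higher exons, without ATM. With neither a read minimum nor the need for both kinds of read there were 4, with a 96-nt exon of FANCA added. That exon stood at 0.94 in LM2 and 0.55 in Parental, with a Bayes factor of 976.71. It had 145 inclusion and 0 exclusion reads in LM2 and 60 and 0 in Parental. At a difference of at least 0.3 there were 0. Requiring also 0.1 or more between read-based levels left 1, ERCC6L2. Calls on the level from reads alone were 2 higher, ERCC6L2 and the 189-nt exon of XPA, and 1 lower, the 180-nt exon of MUTYH, where 2.15% and 2.37% of all compared exons were. By that level NBN differed by 0.03, higher in LM2, where its deposited difference was -0.19. ATM differed by 0.006 and BARD1 by 0.001, so the calls of ATM and BARD1 were lost. The cause was not tested.

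The genes at least 2-fold lower were 3, NBN, OGG1 and RAD51D, with inclusion and exclusion reads only, 0 with reads of all 4 classes, 0 with the sum over events and 0 at a minimum of 50 reads. No share of all genes is given for these settings, so the 3 are not read as a result about repair genes. NEIL1, which met the read minimum in Parental only, was the one gene called relative to the median gene. No gene was called higher under any of these settings.

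Depth limits many exons, since 34 of the 87 had fewer than 5 exclusion reads over both lines, and 30 had none in 1 line. No paired analysis was possible because the columns carry no replicate.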
